A study of Sus scrofa with 21 samples.

Results

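A set of transcripts that stood high in the infarct core 1 week after myocardial infarction (MI) and lower there at 6 weeks was described in pig heart. A probe set, the group of short probes that reads 1 transcript on the array, was a member when its mean log2 value in infarct core at 1 week exceeded control myocardium by at least 1 and exceeded infarct core at 6 weeks by at least 1. A step of 1 on the log2 scale is a 2-fold difference. Members also had to lie above 3 in at least 10 of the 21 arrays, a limit on dim probe sets. In all, 265 probe sets met the rule, out of 12180 past that limit and 24123 on the array. The annotation of the array named 171 of them, the authors' match to other sequences named 56 more, and 38 had no name. They covered 208 named genes, 14 of them with more than 1 member probe set.

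The animals were female crossbred pigs, Landrace x Large White, and their age was not given in the sources used here. In 9 of them MI was produced by surgically closing a branch of the circumflex artery for good, and they were killed at 1, 4 or 6 weeks (days 6, 30 and 45 in the labels), 3 pigs at each stage. Each of these pigs gave 1 sample of infarct core (IC), cut from the centre of the left ventricular scar, and 1 of remote myocardium (RM), the septum between the ventricles, which was not infarcted. Another 3 pigs gave control myocardium (CM), which the labels describe as sham-operated at time 0 and the study's methods as taken from healthy animals. Every sample was 1 array, the pigs being 7, 8 and 9 at 1 week, 18, 20 and 22 at 4 weeks, 2, 3 and 5 at 6 weeks, and 30, 31 and 33 in the control group, and values per array follow in that order. Array values carry no count of molecules, so the number of arrays limits the precision.

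After an infarct, white blood cells enter the dead muscle, and macrophages remove debris through lysosomal digestion, present antigens and release signals that attract other cells. Granulation tissue then forms, in which fibroblasts, myofibroblasts and vessel cells divide and migrate, and it is replaced by a scar with few cells and much collagen. Transcripts of phagocytes, dividing cells and migrating cells are known features of that early tissue. In a piece of tissue, a change in the number of cells of a type cannot be told apart from a change in RNA per cell.

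Members were chosen by the mean values of infarct core at 1 and 6 weeks and of control myocardium, so differences among those 3 groups are given without a test. Members lay 2.44 above control myocardium at 1 week in the median, a 5.44-fold level, with a range of 1.00 to 7.49. The median was 1.57 at 4 weeks and 1.10 at 6 weeks, while the medians over all 12180 probe sets were -0.06, -0.06 and -0.08. At the edge of the rule, ZNF281 lay 1.00 and PNP 1.01 above control myocardium, whereas FEZ2 at 0.996 and RAP1B at 0.973 were left out. For the difference between 1 and 6 weeks, ACSL5 and GNG2 lay just inside, and FAM46C and another probe set of THBS1 just outside.

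Taken array by array, the median of the members above control myocardium was 2.43, 2.29 and 2.40 in infarct core at 1 week, 1.34, 1.48 and 1.88 at 4 weeks, and 0.75, 0.92 and 1.47 at 6 weeks. The 3 early arrays lay close together and above all later ones, while pig 5 at 6 weeks lay within the range of the 4-week arrays. Remote myocardium stayed between -0.21 and 0.27 on the same scale, and control arrays between -0.14 and 0.07. In 230 members the 4-week mean lay between the means at 1 and 6 weeks. In the median, 64.8% of the difference between 1 and 6 weeks was already present at 4 weeks, and in 188 members the share was at least 50%. Over all probe sets the median share was 62.8%. The median difference between 1 and 6 weeks was only 0.02 there, so that share cannot show whether the members' share is particular to them. The counts of 230 and 188 have no counterpart over all probe sets here.

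**Figure D1:**
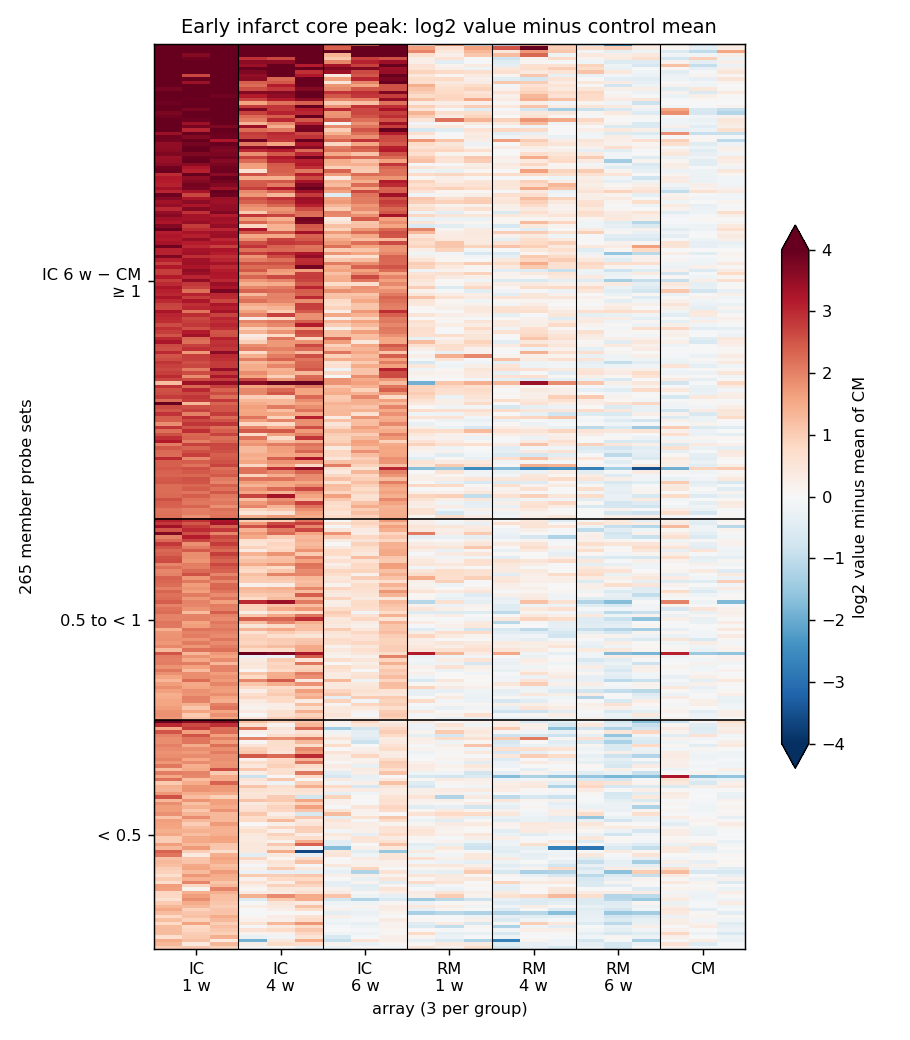
Heat map of the 265 members (lines) over the 21 arrays (columns), coloured by the log2 value minus the control mean, in blocks by how far infarct core at 6 weeks remained above control myocardium. Infarct core columns are strongest at 1 week and weaker at 4 and 6 weeks, with pigs 22 and 5 standing out at the later stages, and remote and control columns are pale.

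How far the members came down differed widely. At 6 weeks 139 members were still at least 1 above control myocardium, 59 lay 0.5 to under 1 above it, and 67 lay under 0.5. Their medians at 1 week were 3.11, 1.97 and 1.39 above control myocardium, an order that the rule itself fixes, since members had to come down by at least 1. The 6-week mean was below the control mean in 19 members, 14 of them named, including the chemokine CXCL9 (-0.43), the dendritic cell surface protein CD83 (-0.33) and the antioxidant enzyme GPX1 (-0.38). For CD83 the control mean rested on pig 30, which read 7.87 where pigs 31 and 33 read 2.88 and 3.02.

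**Figure D2:**
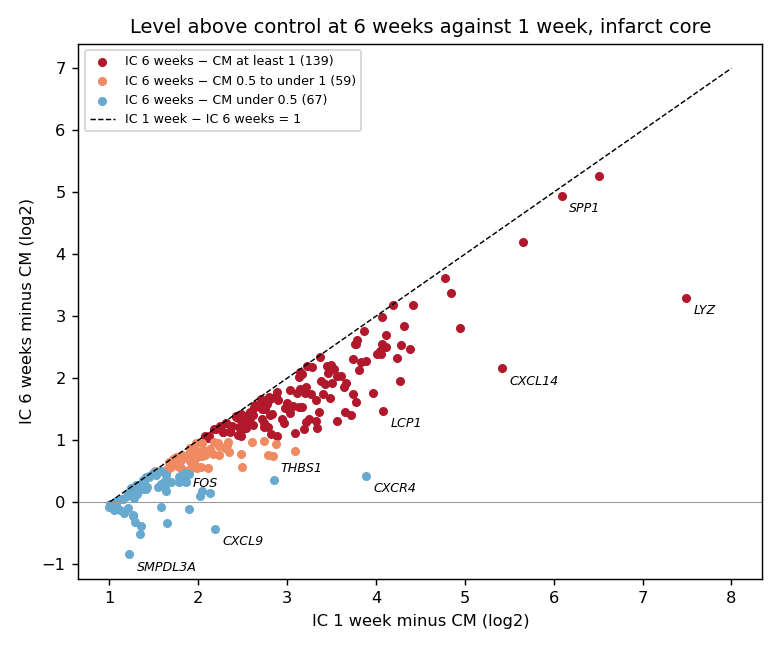
Each point is a member, placed by infarct core minus control myocardium at 1 week (horizontal, log2) and at 6 weeks (vertical, log2). Points spread from below 0 to over 5 at 6 weeks, and 19 members lie below the control mean.

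Not every member was highest at 1 week. In 11 the mean at 4 weeks was above that at 1 week, among them FOS, GPNMB, PLAC8, AQP3 and PSMB8. FOS, an immediate early transcription factor, read 7.25, 6.07 and 6.48 at 1 week, 8.67, 8.52 and 8.01 at 4 weeks, and 4.98, 5.27 and 5.49 at 6 weeks in infarct core, against 7.85, 3.25 and 3.14 in control myocardium. Control pig 30 lay above all infarct core arrays of 1 and 6 weeks, and remote myocardium at 1 week covered 5.07 to 7.90. In 24 members the 4-week mean was below the 6-week mean, among them the mitotic genes TOP2A, NUSAP1, UBE2C, ANLN, SMC4 and TACC3 and the haem-degrading enzyme HMOX1.

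Across all arrays, some features moved with stage or zone. The 4-week arrays stood apart in both zones: the 3' minus 5' difference of the control transcript EF1A was 0.90 ± 0.18 in infarct core and 1.21 ± 0.20 in remote myocardium (SD, n = 3 each), while group means elsewhere ran between 1.96 and 2.20. For GAPDH it parted the zones instead, at 1.30, 0.75 and 1.14 in infarct core at 1, 4 and 6 weeks, against 0.31, -0.02 and 0.28 in remote and 0.09 in control myocardium. For actin the difference was 3.96 in infarct core at 1 week, 3.04 at 4 weeks and 4.84 at 6 weeks. In remote myocardium it was 3.87, 2.97 and 4.36, and in control myocardium 3.67, so the 5' end read relatively low at 6 weeks in both zones. The spike thrX does not come from the tissue, and it also differed between stages. Its 5' probe set averaged 2.06, 4.00 and 1.59 in infarct core at 1, 4 and 6 weeks. In remote myocardium it averaged 2.40, 3.68 and 1.79, and in control myocardium 2.73 (SD 0.07 to 0.85, n = 3 each). The part of this in the members' course was not tested. Stage and array handling cannot be told apart, since each stage was a separate set of pigs. Over 34 probe sets of a cardiomyocyte list, the array median was 9.21, 9.30 and 9.01 in infarct core at 1 week, 9.37, 9.29 and 8.02 at 4 weeks, and 10.14, 9.98 and 8.98 at 6 weeks, against 10.16 to 10.58 in remote and 10.07 to 10.28 in control myocardium. Every infarct core array lay below all remote and control arrays, except that of pig 2 at 6 weeks, which lay within the control range. Of the defining markers that are no members, the macrophage receptor CD163 averaged 7.41, 6.90 and 6.54 in infarct core at 1, 4 and 6 weeks, against 5.42 in control myocardium, in its brighter probe set. A dimmer one averaged 5.48, 3.85 and 4.71, against 3.63, with pigs 20 and 22 at 4 weeks below every control array. The macrophage receptor CSF1R averaged 7.84, 6.99 and 7.00, against 5.19. Single cardiomyocyte markers differed from the list median. At 1 week MYH7 averaged 12.69 against 12.86 in control myocardium, TNNT2 11.61 against 11.73 and ACTC1 11.79 against 11.36. The brightest probe set of TTN averaged 10.59 against 11.48. The markers CD3E, PTPRC and S100A8 did not pass the limit on dim probe sets. PTPRC and S100A8 stayed below 3 on every array. CD3E, a T cell marker, read 4.60, 4.16 and 4.62 in infarct core at 1 week. It averaged 2.85 and 3.05 there at 4 and 6 weeks, against 2.40 in control myocardium, so its absence from the members rests on that limit.

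The comparison of infarct core with remote myocardium at 4 weeks used arrays and pigs on which the rule did not draw, and asked whether members were still above the same heart's spared muscle. Infarct core was higher in 233 of the 265 members and lower in none (limma, pigs as blocks, adjusted p under 0.05 over 12180 probe sets), or 87.9%. Over all probe sets 25.5% were higher and 29.3% lower, 54.7% together. Members were chosen as high in infarct core at 1 week, and other probe sets raised there were not counted as a set beside them. Of 25 collagen probe sets, 0 of them members, 23 were higher and 0 lower. On the fibroblast list, with 1 member among 25, 21 were higher and 1 lower. A high share is therefore not particular to the members. In 225 members (84.9%) every infarct core array lay above every remote array of that stage, as in 26.9% of all probe sets. The median difference was 1.41 among members and -0.05 over all, and 182 of the called members differed by at least 1. The limit on dim probe sets could be met through the infarct core itself, so the 190 members above 3 in at least 10 of the 12 remote and control arrays were also counted, and 167 of them (87.9%) were higher, where 23.3% of all 11301 such probe sets were. Fewer members, 218, were called without the pig block, and 195 without pig 22. Centring the arrays on ribosomal protein genes lowered the median over all probe sets to -0.26 and that of the members to 1.20. The cardiomyocyte values given above move with this comparison, as does the 3' minus 5' difference of GAPDH (0.75 ± 0.15 in infarct core and -0.02 ± 0.06 in remote myocardium at 4 weeks, SD, n = 3 each), and their part in it was not tested.

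**Figure D3:**
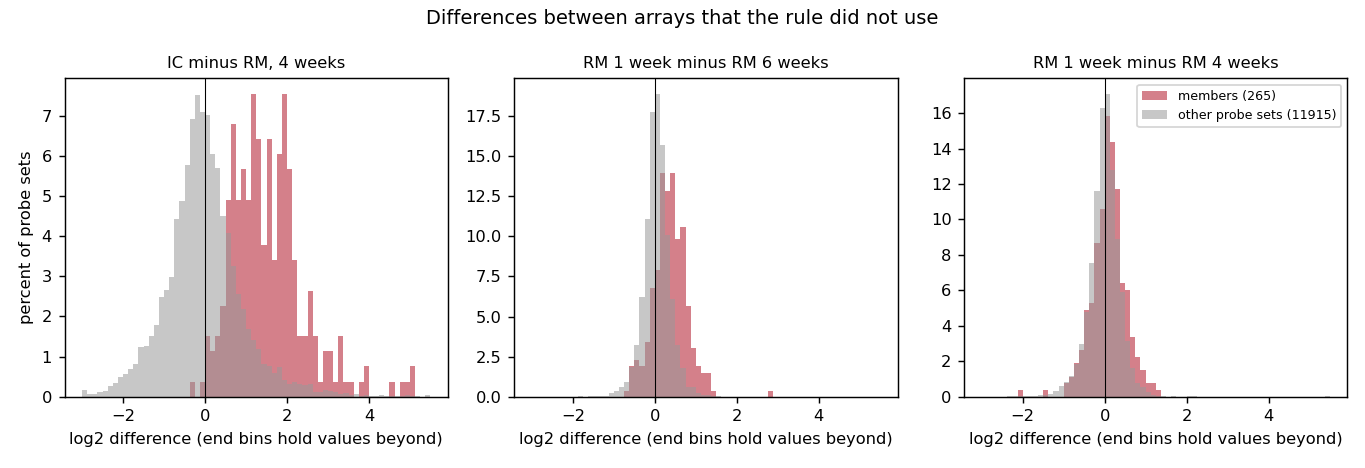
Histograms of log2 differences in arrays the rule did not use, for members and for the other 11915 probe sets, as percent of each set. In the comparison of infarct core with remote myocardium at 4 weeks members centre near 1.41 and the others near 0, while in remote myocardium at 1 against 6 weeks the medians are 0.36 for members and 0.05 over all, and at 1 against 4 weeks 0.09 and 0.01.

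The 32 members that missed the threshold held 30 with infarct core above remote myocardium and 2 below, and 7 of the 32, NCF1, TACC3 and ANLN among them, changed sign after centring on ribosomal protein genes. They included 6 of the 13 members on the cell cycle list, the lymphocyte-related genes CCL5, GNLY and IL2RB, the invariant chain gene CD74, the phagocyte oxidase subunit NCF1, and 5 probe sets with no name. IL2RB, a chain of the interleukin-2 receptor, read 6.58, 5.71 and 6.30 in infarct core at 1 week, 4.27, 4.38 and 4.65 at 4 weeks, and 3.91, 3.69 and 5.04 at 6 weeks, against 4.20, 3.61 and 4.38 in control myocardium. Only the early arrays stood clear of all others.

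Phagocyte genes formed the largest group among the 26 lists, which were chosen with earlier results of these data known. Those lists held 92 of the 265 members, 8 of them in more than 1 list, and 135 named members were in none. Of 37 probe sets of the macrophage list past the limit, 18 were members (48.6%), where 2.18% of all probe sets past the limit were, and at 4 weeks infarct core was higher than remote myocardium in 32 of the 37 and lower in 1. LYZ, lysozyme, which digests bacterial walls, had the largest 1-week difference of all members. It read 10.93, 11.07 and 10.70 in infarct core at 1 week, 7.82, 8.52 and 10.55 at 4 weeks, and 5.98, 5.72 and 8.42 at 6 weeks, against 3.68, 2.62 and 3.92 in control myocardium. The 1-week arrays were nearly alike, pigs 22 and 5 were each the highest of their stage, and no infarct core array overlapped control myocardium. At 1 week the level was 180.3-fold that of control myocardium, and at 4 weeks it rose 4.95 ± 0.43 (SE) above remote myocardium (limma, adjusted p = 1.31e-05).

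TYROBP, the adaptor of activating receptors on myeloid cells, read 8.25, 8.92 and 8.77 at 1 week, 6.98, 7.00 and 7.85 at 4 weeks, and 6.30, 7.12 and 7.53 at 6 weeks in infarct core, against 5.43, 5.00 and 5.30 in control myocardium. All early arrays lay above all later ones, and the later stages overlapped each other. Infarct core at 4 weeks was 1.79 ± 0.31 (SE) above remote myocardium (adjusted p = 0.00071). The bacterial sensor TLR2 stood 2.61, 1.28 and 0.98 above control myocardium at weeks 1, 4 and 6, the cholesterol carrier APOE 3.36, 2.33 and 1.46, and the Fc receptor FCGR3A 3.15, 2.79 and 2.10. Each of these 3 was higher in infarct core than in remote myocardium at 4 weeks (adjusted p of 0.000145, 0.00134 and 0.00105). NCF1 differed, at 1.05, 0.04 and -0.13 above control myocardium, and was not called at 4 weeks (0.12 ± 0.22, SE, adjusted p = 0.652).

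SPP1, osteopontin, a secreted matrix protein and cytokine, stayed high at 6 weeks. Infarct core read 8.72, 7.86 and 9.53 at 1 week, 6.95, 8.83 and 9.86 at 4 weeks, and 7.85, 7.10 and 7.72 at 6 weeks, against 2.07, 1.61 and 4.16 in control myocardium. The 1-week and 4-week arrays overlapped, and pig 8 at 1 week lay only just above pig 2 at 6 weeks. The 4-week difference from remote myocardium was 4.84 ± 0.37 (SE, adjusted p = 7.51e-06). GPNMB, a membrane glycoprotein of phagocytes, was 5.09 ± 0.68 above remote myocardium at 4 weeks (SE, adjusted p = 0.000153), but its control arrays spread from 2.97 to 5.94. It stood only 2.89 above control myocardium at 4 weeks, so the mean of remote myocardium lay below that of control myocardium.

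Lysosomal members were 8 of 41 probe sets on that list, from 6 genes, and those of CTSS and CTSZ were also macrophage list members. All 8 were higher in infarct core than in remote myocardium at 4 weeks. Of the 41, 25 were higher and 7 lower. CTSS, cathepsin S, a protease that trims the invariant chain, was read by 3 probe sets and all were members. In the one shown infarct core read 6.16, 6.63 and 6.48 at 1 week, 5.02, 5.73 and 6.31 at 4 weeks, and 4.17, 3.97 and 5.09 at 6 weeks, against 3.72, 3.42 and 3.79 in control myocardium. Pig 22 reached the level of the 1-week arrays, and all 6-week arrays were below them and above control myocardium. The other lysosomal members, such as CTSH, LGMN, GM2A and GLA, stood 1.75 to 4.19 above control myocardium at 1 week and 0.70 to 3.19 at 6 weeks. CTSZ, at 0.67 ± 0.26 (SE) above remote myocardium at 4 weeks, was close to the threshold (adjusted p = 0.0496).

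**Figure D4:**
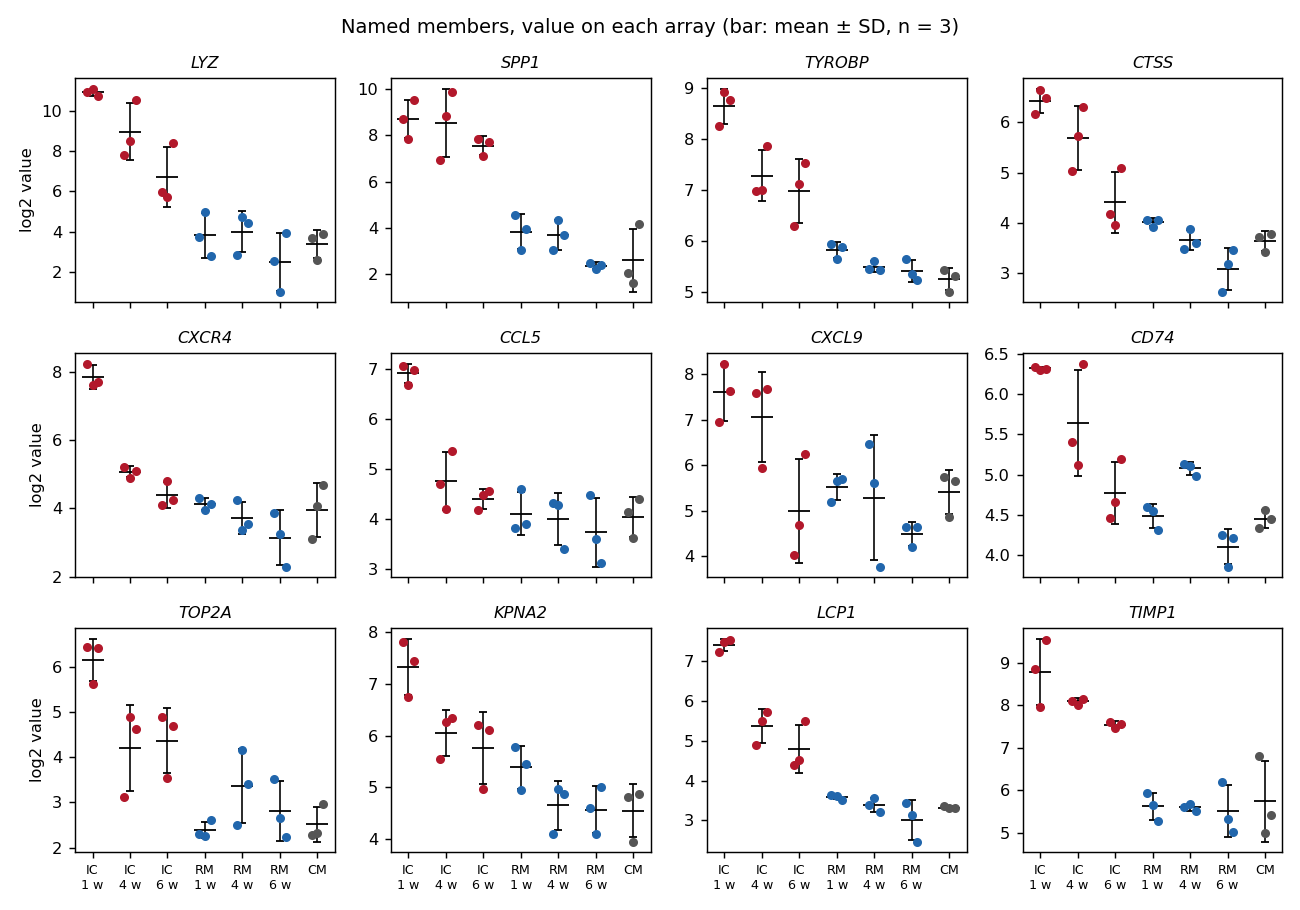
Log2 values per array of 12 members in infarct core (1, 4 and 6 weeks), remote myocardium (1, 4 and 6 weeks) and control myocardium, with group means and bars of 1 SD (n = 3 each). LYZ lies at 10.70 to 11.07 in infarct core at 1 week, while CXCR4 and CCL5 at 6 weeks are mixed with control arrays.

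Chemokines, cytokines and their receptors supplied 11 member probe sets of 44 on the list. CXCR4, the receptor for CXCL12 on white blood cells, read 8.24, 7.60 and 7.70 in infarct core at 1 week, 5.22, 4.90 and 5.10 at 4 weeks, and 4.11, 4.82 and 4.24 at 6 weeks, against 3.11, 4.06 and 4.70 in control myocardium. The 1-week arrays stood far above the rest, and at 6 weeks the arrays overlapped control myocardium. At 4 weeks CXCR4 was 1.36 ± 0.27 above remote myocardium (SE, adjusted p = 0.00173). CCL5, which attracts T cells, read 7.06, 6.68 and 6.97 at 1 week, 4.71, 4.20 and 5.36 at 4 weeks, and 4.17, 4.49 and 4.55 at 6 weeks, against 4.13, 3.62 and 4.40 in control myocardium. Again only the 1-week arrays were clear of the others, and the 4-week difference from remote myocardium, 0.76 ± 0.40 (SE), was not called (adjusted p = 0.134).

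CXCL9, an interferon-induced attractant of T cells, read 6.96, 8.22 and 7.63 in infarct core at 1 week, 7.59, 5.93 and 7.68 at 4 weeks, and 4.03, 4.69 and 6.26 at 6 weeks, against 5.74, 4.87 and 5.65 in control myocardium. Pigs 2 and 3 at 6 weeks lay below every control array, and pig 5 above them. CXCL14, a chemokine of epithelia and stroma, varied most in the early tissue, with 9.43, 5.98 and 7.10 at 1 week, 4.99, 4.74 and 6.69 at 4 weeks, and 3.21, 4.86 and 4.65 at 6 weeks, against 1.33, 3.03 and 1.88 in control myocardium. Pig 7 alone was above 9, and pig 22 lay within the range of the 1-week arrays. IGF1, a growth factor made by macrophages and stromal cells, had 3 member probe sets among 5 past the limit, and the one shown stood 3.89, 2.90 and 2.27 above control myocardium at weeks 1, 4 and 6. IL33, an alarm cytokine held in cell nuclei, stood 2.50, 1.44 and 1.18 above it.

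Antigen presentation gave 9 member probe sets of 29 on the list, most of them class II genes of the swine leukocyte antigen (SLA) complex. SLA-DQB1, a class II beta chain, read 9.17, 9.10 and 8.89 in infarct core at 1 week, 8.05, 8.12 and 9.44 at 4 weeks, and 7.38, 7.50 and 8.38 at 6 weeks, against 7.14, 6.84 and 7.06 in control myocardium. Pig 22 exceeded the 1-week arrays, and pig 5 exceeded the other 4-week arrays. The same pigs were the highest of their stage in all 9 of these probe sets, and over the 9 the array median was 1.75, 1.88 and 1.58 above control myocardium at 1 week, 0.73, 0.83 and 2.06 at 4 weeks, and -0.20, 0.25 and 1.05 at 6 weeks. At 4 weeks 8 of the 9 were higher in infarct core than in remote myocardium, while CD74, the chaperone of class II molecules, was 0.56 ± 0.24 above it (SE, adjusted p = 0.0727). Of the 29 on the list, 17 were higher and 3 lower. The SLA genes are near-identical copies in part, so single symbols are uncertain.

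Interferon-related members were CXCL9, GBP1, IRF8 and IFI30, 4 of 33 probe sets on the list. IRF8, a transcription factor of macrophages and dendritic cells, stood 3.09, 1.79 and 1.11 above control myocardium at weeks 1, 4 and 6, and was 1.50 ± 0.35 above remote myocardium at 4 weeks (SE, adjusted p = 0.00425). IFI30, a thiol reductase of antigen processing, stood 4.07, 3.25 and 2.56 above control myocardium. All 4 were higher than remote myocardium at 4 weeks, as were 24 of the 33.

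Cell cycle members were near their 6-week level by 4 weeks. Of 38 probe sets on that list 13 were members (34.2%), and in the median 99.4% of their difference between 1 and 6 weeks was present by 4 weeks, compared with 49.2% for the macrophage members. The macrophage share leans on pig 22, the highest 4-week array in 17 of those 18 members. Their array medians above control myocardium were 1.75, 2.19 and 3.29 at 4 weeks, against 3.08, 3.20 and 3.00 at 1 week. The cell cycle share also rests on unlike arrays. Pig 18 was the lowest 4-week array in 11 of those 13 members and pig 3 the lowest 6-week array in 10. Array medians of the cell cycle members were 0.57, 1.40 and 0.91 at 4 weeks and 1.17, 0.49 and 1.12 at 6 weeks. TOP2A, the topoisomerase of dividing cells, read 6.45, 5.62 and 6.41 in infarct core at 1 week, 3.13, 4.90 and 4.62 at 4 weeks, and 4.89, 3.54 and 4.68 at 6 weeks, against 2.28, 2.32 and 2.96 in control myocardium. The 1-week arrays were the highest, the 2 later stages overlapped, and every infarct core array was above every control array. The 4-week difference from remote myocardium was 0.85 ± 0.26 (SE, adjusted p = 0.0192), with remote myocardium of pigs 18, 20 and 22 at 2.51, 4.16 and 3.42.

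KPNA2, a nuclear import factor, read 7.80, 6.74 and 7.45 at 1 week, 5.54, 6.26 and 6.34 at 4 weeks, and 6.21, 4.96 and 6.10 at 6 weeks in infarct core, against 4.82, 3.95 and 4.87 in control myocardium. Pig 8 was the lowest of the 1-week arrays, which held for all 13 of these members. The array medians of the 13 above control myocardium were 2.38, 1.74 and 2.69 in pigs 7, 8 and 9. At 4 weeks infarct core was higher than remote myocardium in 7 of the 13, and in 11 of the 38 on the list, with 2 lower. The replication genes PCNA and FEN1, the mitotic genes NUSAP1, UBE2C and TACC3 and the cytokinesis gene ANLN were the 6 not called, with differences of -0.06 to 0.63.

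Genes of the actin cytoskeleton gave 13 member probe sets of 49 on the list, all 13 higher in infarct core than in remote myocardium at 4 weeks. Of the 49, 39 were higher and 3 lower. LCP1, an actin-bundling protein of white blood cells, read 7.22, 7.47 and 7.52 in infarct core at 1 week, 4.89, 5.51 and 5.72 at 4 weeks, and 4.38, 4.52 and 5.49 at 6 weeks, against 3.35, 3.30 and 3.31 in control myocardium. The 1-week arrays were apart from all others, and the later stages overlapped each other but not control myocardium. S100A6, a calcium-binding protein of dividing and spreading cells, read 9.17, 8.93 and 8.74 at 1 week, 8.81, 8.69 and 8.66 at 4 weeks, and 7.91, 7.87 and 7.59 at 6 weeks, against 4.27, 3.84 and 4.41. Its infarct core arrays were close together at each stage, and its 4-week difference from remote myocardium was 3.84 ± 0.19 (SE, adjusted p = 1.44e-06). CORO1A, a coronin of white blood cells, stood 3.09, 1.37 and 0.82 above control myocardium at weeks 1, 4 and 6 in its member probe set, but 0.05, -0.03 and -0.19 in another that was brighter in control myocardium. The actin-binding protein PFN1 stood 2.23, 1.34 and 0.75 above it.

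Contractile genes that smooth muscle and myofibroblasts share were 6 of 29 on their list (CSRP2, TPM4, TAGLN2, ACTN1, CNN1 and CNN2), and all 6 were higher at 4 weeks in infarct core than in remote myocardium. Of the 29, 21 were higher and 3 lower. CNN1, calponin of smooth muscle, read 6.94, 6.06 and 5.80 in infarct core at 1 week, 5.95, 5.42 and 5.19 at 4 weeks, and 5.27, 4.64 and 4.85 at 6 weeks, against 3.57, 2.71 and 2.87 in control myocardium. Neighbouring stages overlapped, and infarct core stayed above control myocardium throughout. CSRP2, a LIM protein of smooth muscle, stood 4.84, 3.61 and 3.37 above control myocardium, while CNN2 stood 1.58, 0.48 and -0.09 above it.

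Few members were matrix genes by number, although some matrix lists held a larger share of members than the 2.18% over all probe sets. None of 25 collagen probe sets past the limit was a member, and their median above control myocardium was 2.09 at 1 week, 2.18 at 4 weeks and 1.96 at 6 weeks. The endothelial list had 0 of 25 and the fibroblast list 1 of 25, counts too small to set apart from that share. Collagen-processing enzymes gave 3 of 28, namely the lysyl hydroxylase PLOD2, the collagen chaperone SERPINH1 and the procollagen proteinase BMP1. PLOD2 stood 3.76, 2.81 and 2.56 above control myocardium at weeks 1, 4 and 6 and was 2.67 ± 0.21 above remote myocardium at 4 weeks (SE, adjusted p = 7.77e-06). TIMP1, an inhibitor of matrix metalloproteinases, read 8.86, 7.96 and 9.52 at 1 week, 8.10, 8.02 and 8.15 at 4 weeks, and 7.61, 7.46 and 7.56 at 6 weeks, against 6.81, 5.00 and 5.41 in control myocardium. The 1-week arrays were spread, those of 6 weeks were tight, and pig 8 at 1 week lay below the 4-week arrays and above those of 6 weeks. PLAU, urokinase, stood 2.30, 1.38 and 0.87 above control myocardium, and the matricellular genes THBS1 and THBS3 2.84, 2.48 and 0.74, and 4.42, 3.59 and 3.19.

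**Figure D5:**
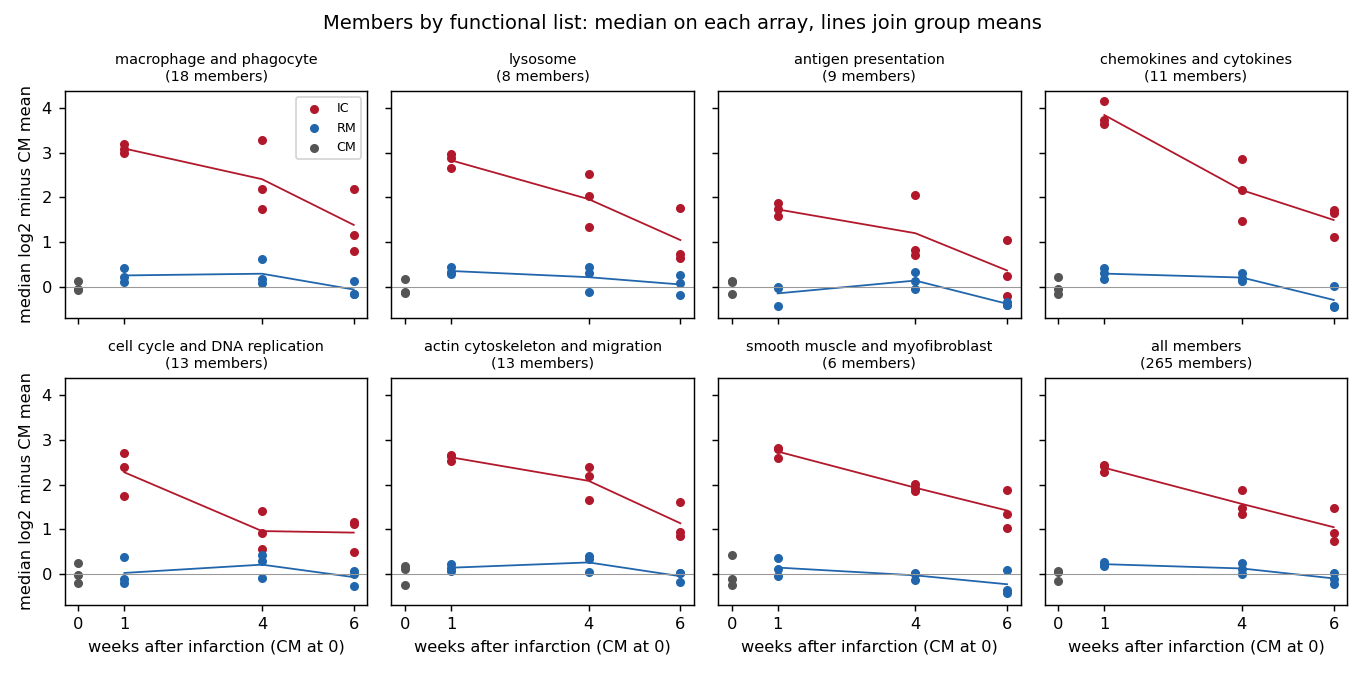
Median of the member probe sets of 7 lists, and of all members, minus the control mean (log2), against weeks after infarction. Each point is an array of infarct core, remote myocardium or control myocardium (placed at 0). In infarct core, cell cycle members sit at 0.57 to 1.40 at 4 weeks and 0.49 to 1.17 at 6 weeks. Macrophage members run there at 1.75 to 3.29 and 0.81 to 2.19.

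The pigs differed more at later stages than early. Among members the median SD between arrays of a group was 0.27 in infarct core at 1 week, 0.44 at 4 weeks and 0.47 at 6 weeks, against 0.30 in control myocardium, and over all probe sets it was 0.18, 0.23, 0.24 and 0.17. Pig 22 was the highest of the 4-week infarct core arrays in 183 members (69.1%) and pig 5 of the 6-week arrays in 201 (75.8%). Over the 1607 probe sets with at least 1 above control myocardium at 1 week, those shares were 47.4% and 66.4%. Pigs 22 and 5 also had the lowest cardiomyocyte list medians of their stage (8.02 and 8.98) and the highest medians over the 19 macrophage list probe sets that are no members, 7.37 in pig 22 against 6.20 and 6.35 in pigs 18 and 20, and 6.32 in pig 5 against 5.51 and 6.06 in pigs 2 and 3. The part of these values in the members' course was not tested. Without pig 5, 383 probe sets met the rule, 255 of them members, and without pig 2 it was met by 217.

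Remote myocardium allowed a test at 1 week against later stages, in arrays the rule did not use, although those of 1 and 6 weeks came from the pigs whose infarct core it used. Against 6 weeks, no member was called (limma, adjusted p under 0.05), where 0.181% of all probe sets were. At an unadjusted p under 0.05, 64 members (24.2%) were higher at 1 week and 0 lower, against 9.66% and 4.66% of all probe sets. The median difference was 0.36 among members and 0.05 over all, and 83.4% of the members and 58.1% of all probe sets lay above 0. The rule compared infarct core of these same stages, and features of a stage's arrays were shared by both zones. A 5' actin probe set, which is a member, averaged 5.93 and 5.17 in remote myocardium at 1 and 6 weeks. The 3' one averaged 9.80 and 9.54. The part of such features in these differences was not tested. Against 4 weeks, 3 members (1.13%) were called, all higher at 1 week, where 0.665% of all probe sets were higher and 1.59% were called either way, and the median was 0.09 among members and 0.01 over all. These were NXT2, a cofactor of mRNA export, the zinc finger repressor ZNF281 and a probe set with no name. NXT2 read 3.90, 4.38 and 4.44 in remote myocardium at 1 week, against 3.26, 3.14 and 3.04 at 4 weeks, so that the groups did not overlap, a difference of 1.09 ± 0.21 (SE, adjusted p = 0.014). In 66 members (24.9%) all remote arrays of 1 week lay above all control arrays, where 12% of all probe sets did so, and in 11 (4.15%) they lay below, where 9.84% did. The control arrays entered the rule, so these last counts are a description.

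Some members carry a limit from the array. Of 47 member genes with more than 1 probe set past the limit, 10 had all of them as members and 9 had a probe set that was lower in infarct core at 1 week than in control myocardium. ATP2A2, the calcium pump of the sarcoplasmic reticulum, had member probe sets averaging 5.86 and 6.72 at 1 week against 4.35 and 4.92 in control myocardium, but another, far brighter one averaged 10.82 against 11.69. RAN, a GTPase of nuclear transport, likewise had other probe sets at -0.58 to 1.63 above control myocardium at 1 week, and ZNF281 had others at -0.01 to 0.92. The second probe set of GM2A stood only 0.94 above it. The ACTG1 members were the array's 5' control probe sets, on which the 3' minus 5' values given above bear, and the actin 3' probe set averaged 11.74, 11.55 and 11.23 in infarct core at 1, 4 and 6 weeks, against 9.61 in control myocardium. The uncharacterised gene LOC100152327 and JCHAIN, the joining chain of secreted antibodies, varied widely between pigs. LOC100152327 read 10.84, 8.46 and 12.79 at 1 week and 6.57, 10.19 and 11.62 at 6 weeks in infarct core, with pig 8 at 1 week below pigs 3 and 5 at 6 weeks. JCHAIN read 8.25, 6.47 and 9.86 at 1 week and 4.24, 6.30 and 8.33 at 6 weeks, and the stages again overlapped.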

How the data were processed

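Total RNA was hybridised to Affymetrix Porcine Genome Arrays, 1 per sample. The deposited values are log2 expression that the authors made with RMA (background correction, quantile normalisation and summary of probes) over all 21 arrays, and they were used as deposited. Low levels are compressed by this scale, so fold changes of dim probe sets are understated. Gene names came from the platform annotation, which is old, and otherwise from the human symbols of the authors' match to Ensembl, to the genome rather than transcripts in 16 members, and in 11 of 108 members with both names these differed. The members and gene lists were chosen with earlier results of these data known.

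Groups were compared in R 4.3.3 with limma 3.58.1 over 12180 probe sets, with Benjamini-Hochberg adjustment and a threshold of 0.05. Infarct core and remote myocardium were paired by the pig number in the labels, as a fixed block. Residuals of the same pig correlated at 0.0714 to 0.491 in the 9 pigs, in each above those with any other pig. Remote myocardium stages were compared in a fit of all 7 groups. Each group was 3 pigs. Single probe sets at 3 against 3 could not go below 0.1 in an exact permutation test, so limma was used throughout. Among 100 probe sets per size simulated with a difference of 1 or 2 on the log2 scale, 63 and 90 were recovered for infarct core against remote myocardium at 4 weeks, 77 and 95 for remote myocardium at 1 against 6 weeks, and 78 and 93 at 1 against 4 weeks.

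Genes named with values were those with the largest differences that define the set, up to 6 per list, the largest 4-week differences, those called in remote myocardium and those at the limits of the rule. NCF1, IL2RB, CD83, GPX1, IL33, FCGR3A and genes named only in a count were added after their values were seen. Alternatives were other limits on dim values, other scalings, group medians, an unblocked fit, a random block, a stricter threshold and leaving out each array or pig. No sequence was analysed here. A gene that met the naming rule is not reported here.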

Additional observations from a re-analysis of the deposited data

Results flagged for a closer look

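In 11 members infarct core and remote myocardium at 1 week lay on opposite sides of control myocardium, every infarct core array above and every remote array below every control array. That was 4.15% of the members, where 162 of all 12180 probe sets (1.33%) did so. The rule itself placed the members' infarct core above control myocardium, so the larger share among members is no result about them. The difference between the zones was not tested in these members, since the rule used the infarct core and control values. Both zones were compared with the same 3 control arrays. For remote myocardium alone, whatever infarct core did, arrays of 1 week lay wholly below control arrays in 4.15% of the members, against 9.84% of all probe sets. For remote myocardium minus control myocardium, TMEM2, a hyaluronan-degrading membrane protein, stood at -1.20 and SMPDL3A, a phosphodiesterase, at -1.13. A probe set to which the platform gives more than 1 symbol stood at -0.75, the lipid kinase PIP4K2A at -0.51, the cell cycle gene CKS2 at -0.50 and the class II gene SLA-DRA at -0.50. LMNB1, a lamin, stood at -0.40, LOC106504372 at -0.36, APOE at -0.28, ELMO1, an engulfment gene, at -0.28 and TACC3 at -0.20.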

How the results depend on the processing

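Of the probe sets, 518 met the rule without the limit on dim values, all 265 members among them, and leaving out 1 array at a time gave 217 to 383. The other limits and scalings gave 214 to 314. For infarct core against remote myocardium at 4 weeks, the count of 233 members ran between 196 and 235 under all other settings, 218 without the replicate block and 235 with the pig as a random block, and leaving out 1 pig gave 195 to 221. No member was called in remote myocardium at 1 against 6 weeks under any setting, except that leaving out arrays gave 0 to 2, the 2 without pig 5. For 1 against 4 weeks, 0 members were called at a threshold of 0.01, and leaving out arrays gave 0 to 4, with 0 without pig 22 and 1 without pig 9. None of the 233 called at 4 weeks, nor of the 3 called in remote myocardium, changed sign under any setting, whereas 11 of the 32 not called at 4 weeks did under at least 1. For infarct core at 1 week minus control myocardium, the median over all probe sets was -0.17 after centring on the array median and -0.32 after centring on ribosomal protein genes, against -0.06 as deposited. With 3 arrays in a group and the brightness of dim probe sets compressed, a difference that missed the threshold is not shown to be absent.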
